A study of Mus musculus with 8 samples.

Results

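Cathepsins are the proteases that break down proteins inside lysosomes and endosomes. The 10 cathepsin genes described here, Ctsa, Ctsb, Ctsc, Ctsd, Ctse, Ctsh, Ctsl, Ctso, Ctss and Ctsz, were taken by their symbols from the deposited comparison, and all 10 were found among the 15853 genes listed there. The list was given by name, with no measured value in its rule, though earlier results of these data were known when it was chosen. Further cathepsin genes outside the 10, Ctsk and Ctsf among them, are described below. Each of the 10 also had an adjusted p, as did 14619 genes in all.

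The comparison was between knockout macrophages (Mirc11 fl/fl, Mirc22 fl/fl, Lyz2 Cre/Cre; 4 libraries) and control macrophages (Mirc11 fl/fl, Mirc22 fl/fl, Lyz2 +/+; 4 libraries). Both groups carried loxP-flanked copies of Mirc11 and Mirc22, genomic clusters coding for the miRNAs miR-23, miR-27 and miR-24. Cre was present in the knockout group alone, inserted in both copies of Lyz2, a lysozyme gene of myeloid cells, so the groups differ in Cre and in Lyz2 as well as in the clusters. The cells were primary macrophages grown from mouse bone marrow for 7 days with L929 conditioned medium, then given 250 uM palmitate (C16:0, a saturated fatty acid) together with 25 mM glucose and 10 nM insulin over 24 h. Poly(A) RNA was sequenced. No label gives the age or sex of the mice or ties a library to an animal; the design text calls the 4 libraries biological replicates, and the p-values cover only the variation among them.

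Cathepsins are made as inactive precursors, tagged with mannose 6-phosphate and carried to acidic compartments, where they are cut to their active form. They fall into 3 chemical classes. Cathepsins D and E are aspartic proteases, cathepsin A is a serine carboxypeptidase, and cathepsins B, C, H, L, O, S and Z are cysteine proteases related to papain. In macrophages they digest phagocytosed and autophagic cargo, process antigens and, when they leak from damaged lysosomes, can set off cell death.

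The sign of every difference below rests on Lyz2, since no header says which genotype is the numerator. By the authors' deposited table, Lyz2 had a log2 fold change of -9.10 (SE 0.42), read here as lower in the knockout, whose Lyz2 copies are both interrupted by Cre. A fold change below 0 therefore means lower in knockout than in control. Lyz2 cannot serve as a separate check of the labels for that reason. Macrophage markers were abundant, with Csf1r, the M-CSF receptor gene, at a mean normalized count of 163291 and Cd68 at 104490 per the authors' deposited table. The 8 columns with values per library were left out, because their numbers match no label. Levels per genotype are therefore means derived from the authors' overall mean and fold change, with no spread of their own. The spread between libraries enters through the standard error (SE) of the log2 fold change.

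Of the 10 cathepsin genes, 4 were lower in knockout macrophages and 0 were higher, by the authors' DESeq2 adjusted p under 0.05. Ctss, Ctsb, Ctsl and Ctsa were the 4 that fell, and 6 were not called. Among all genes tested, 23.0% were called, 11.7% as lower and 11.3% as higher. The abundant genes are the closer background for this family, because 8 of the 10 had a mean normalized count of at least 10000. Among the 1413 genes that abundant, 20.0% were called lower and 8.49% higher, and the 4 cathepsins called lower were all among these 8. In all, 7 members had a negative log2 fold change and 3 a positive one. Their median was -0.13, against -0.0040 for all genes tested and -0.05 for the abundant genes. At an unadjusted p under 0.05, 5 members stood out, the fifth being Ctsd, and none of the 3 with a positive fold change was among them. Against a null of an absolute log2 fold change of at most 0.1, Ctss alone was called (adjusted p = 0.000459). The direction of calls over all genes depends on scaling: 49.1% of calls were higher as deposited, and 67.7% once all fold changes were centred on the summed group means without Lyz2, a shift of -0.05.

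**Figure D1:**
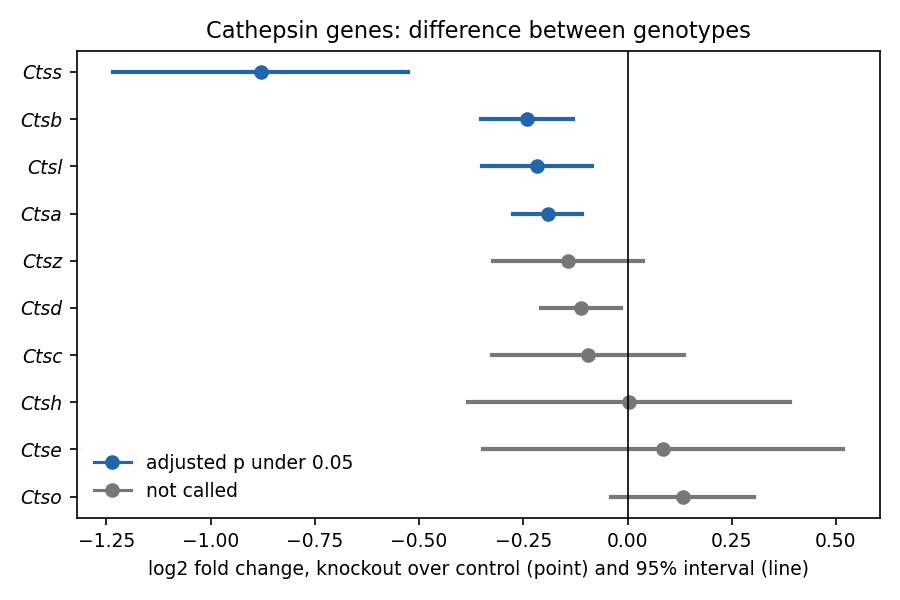
Log2 fold change of each cathepsin gene, knockout over control, from the authors' deposited table (point) with its 95% interval from the deposited SE (line). The 4 genes in blue passed the adjusted p threshold; Ctss, at -0.88, lies apart from the other 3 called genes, which lie between -0.24 and -0.19.

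Cathepsin transcripts were among the most abundant of these cells. Ctsd ranked 1 and Ctsb ranked 2 of all 15853 genes by mean normalized count, Ctsl ranked 10, Ctss 14, Ctsa 56 and Ctsz 113. The 10 genes together held 4.66% of the summed mean normalized count, and Ctsb, Ctsd, Ctsl and Ctss alone held 4.38%. In derived group means, the 10 summed to 2983210 normalized counts in knockout and 3527139 in control cells, a difference of -15.4%, or -11.7% with Ctss left out. They made up 4.36% of the summed knockout means and 4.94% of the summed control means. Ctsb made up 34.96% of the summed difference and Ctss 32.2%.

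Per kilobase of its principal transcript, Ctsd stood highest, at a derived mean of 519459 normalized counts per kb in knockout and 560939 in control cells. Ctsb followed at 220225 per kb in knockout and 260314 in control cells. Ctss stood at 154006 per kb in knockout and 283314 in control cells, so that its place relative to Ctsb differed between the genotypes. Ctsl was at 71663 in knockout and 83305 in control cells with its transcript of 6168 nucleotides. With the shorter principal transcript of 1971 nucleotides its overall mean is 242476 per kb, close to the 240270 of Ctsb, so its rank depends on which form is made. Ctsz, Ctsa, Ctsh and Ctsc came next, with overall means between 40594 and 7262 per kb. Ctso was at 1798 per kb, and Ctse, at 74.6 per kb, was scarce. Whether neighbours in this order differ beyond the spread between libraries was not tested.

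**Figure D2:**
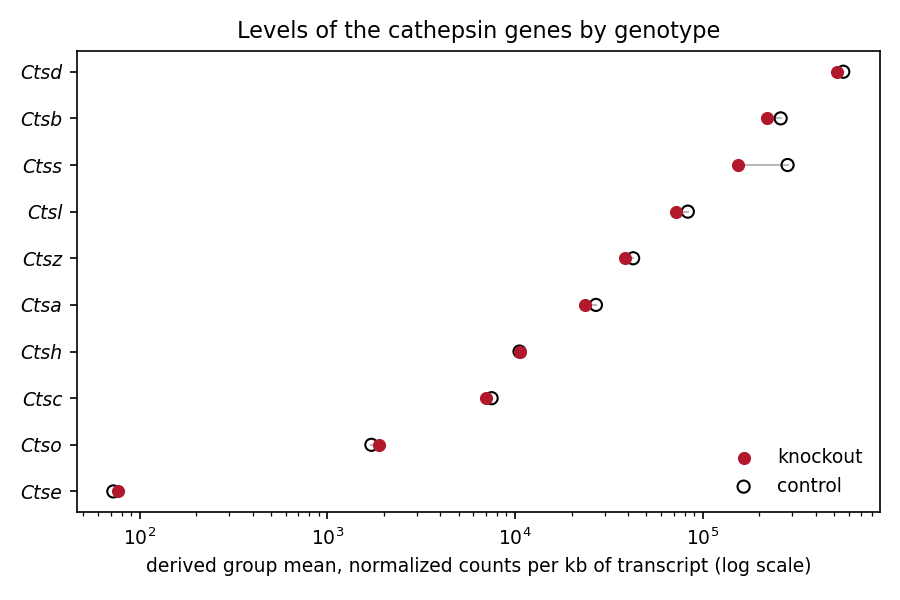
Derived mean of each cathepsin gene in knockout (red) and control (open) cells, in normalized counts per kb of its longest principal transcript, on a log axis. Levels run from 74.6 per kb overall for Ctse to 540199 for Ctsd, and the widest gap between the genotypes is that of Ctss.

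The aspartic pair did not pass the threshold. Ctsd, which encodes the main aspartic protease of lysosomes, had derived means of 1104890 normalized counts in knockout and 1193118 in control cells. Its log2 fold change per the authors' deposited table was -0.11 (SE 0.05 and adjusted p = 0.0847 by DESeq2). That is a difference of -7.39%, with a 95% interval from -13.4% to -1.02%, an interval that does not reach the -45.6% of Ctss. Ctse encodes an endosomal aspartic protease of immune cells. Its derived means were only 163 normalized counts in knockout and 154 in control cells. The log2 fold change of 0.09 (SE 0.22 and adjusted p = 0.825) per the authors' deposited table carries an interval from -21.3% to 43.1%, so a moderate change in either direction would not have been seen.

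Ctsa, which encodes the serine carboxypeptidase that shields lysosomal beta-galactosidase and neuraminidase from degradation, was lower. Its derived means were 86156 normalized counts in knockout and 98367 in control cells, a difference of -12.4% (95% interval -17.3% to -7.27%). By the authors' deposited table the log2 fold change was -0.19 (SE 0.04 and adjusted p = 9.996e-05 by DESeq2). This SE was 0.568 times the median SE of the abundant genes, the smallest of the 10. Ctsa lies at chr2:164832873-164841032 (mm10, plus strand), and its 3' end overlaps Pltp, a phospholipid transfer protein gene on the opposite strand. Pltp was also lower, at -0.61 (SE 0.18 and adjusted p = 0.00635) per the authors' deposited table. The sources used here do not say whether counting used strand. Reads of the pair may therefore not be separated, and the value of Ctsa is uncertain to that extent. Pltp was chosen for this overlap, not by the naming rule. Ctsa also overlaps Neurl2, Ctsb overlaps Fdft1 and Ctsz overlaps Nelfcd, each on the opposite strand and each with a mean normalized count of at most 2345. On the same strand, Ctsd overlaps Gm49369 (mean normalized count 301) and Ctss overlaps the pseudogene Hmgb1-ps5 (35.7).

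The endopeptidases among the cysteine cathepsins included the largest difference among the 10 genes. Ctss encodes cathepsin S, which trims the invariant chain of MHC class II and stays active near neutral pH. It had derived means of 208679 normalized counts in knockout and 383890 in control cells, 0.544 times the control level (95% interval 0.425 to 0.695). The log2 fold change was -0.88 (SE 0.18 and adjusted p = 2.48e-05 by DESeq2) per the authors' deposited table. Of the 1413 abundant genes, 5 had a lower fold change. The SE was 2.44 times the median of the abundant genes, so Ctss was estimated less precisely than most genes of like level. Ctss lies at chr3:95526786-95556403 (mm10, plus strand).

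Ctsb and Ctsl showed smaller and similar differences. Ctsb encodes cathepsin B, which also removes dipeptides from the C-terminus of its substrates. Its derived means were 1044529 normalized counts in knockout and 1234669 in control cells, a difference of -15.4% (95% interval -21.7% to -8.63%). The log2 fold change per the authors' deposited table was -0.24 (SE 0.06 and adjusted p = 0.000314 by DESeq2). Ctsl encodes cathepsin L, a broad lysosomal endopeptidase. It had derived means of 442020 normalized counts in knockout and 513822 in control cells, 0.86 times the control level (95% interval of the difference -21.5% to -5.76%). Its log2 fold change was -0.22 (SE 0.07 and adjusted p = 0.00888 by DESeq2) per the authors' deposited table. The call of Ctsl was lost when fold changes were centred on the summed group means without Lyz2 (adjusted p = 0.0599). The intervals of Ctsb and Ctsl overlap each other but not that of Ctss, and the difference between genes was not tested.

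Ctso, a widely expressed and less studied cysteine cathepsin gene, was not called. Its derived means were 6521 normalized counts in knockout and 5951 in control cells. By the authors' deposited table the log2 fold change was 0.13 (SE 0.09 and adjusted p = 0.279), and the interval ran from -2.69% to 23.4%. Its fold change was the largest positive one among the 10 genes, and it lies on chromosome 3, as Ctss does.

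Ctsz, Ctsc and Ctsh encode cysteine cathepsins that act mainly as exopeptidases, an activity that cathepsin B has as well. None of these 3 was called by DESeq2, and none had an unadjusted p under 0.05. Ctsz, a carboxypeptidase gene, had derived means of 55620 normalized counts in knockout and 61373 in control cells. Its log2 fold change was -0.14 (SE 0.09 and adjusted p = 0.265), with an interval from -20.0% to 2.66%, per the authors' deposited table. Ctsc encodes dipeptidyl peptidase I, the activator of granule serine proteases. Its derived means were 17505 normalized counts in knockout and 18703 in control cells, and the authors' deposited table gave a log2 fold change of -0.10 (SE 0.12 and adjusted p = 0.602). The interval of Ctsc ran from -20.2% to 9.79%. Ctsh, an aminopeptidase gene, had derived means of 17129 normalized counts in knockout and 17092 in control cells. Its log2 fold change was 0.0031 (SE 0.20 and adjusted p = 0.993) per the authors' deposited table. The SE of Ctsh was 2.66 times the median of the abundant genes, and its interval ran from -23.3% to 30.9%. The intervals of all 3 genes hold a fall the size of those of Ctsb and Ctsl.

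**Figure D3:**
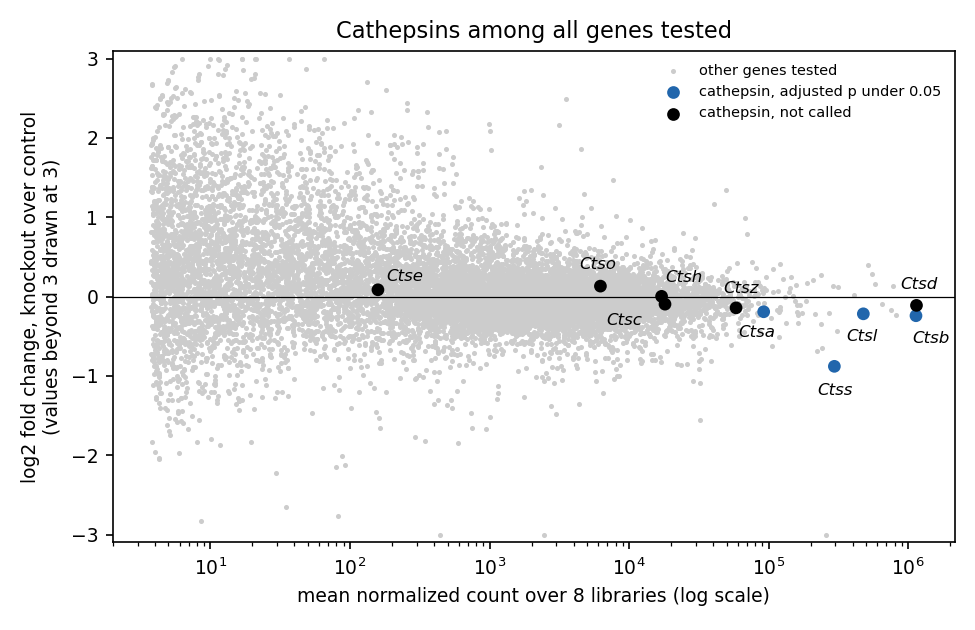
Log2 fold change, knockout over control, against mean normalized count (log axis) for all genes tested, with the 10 cathepsins marked. Ctsd, Ctsb, Ctsl and Ctss lie at the far right of the plot, and Ctss falls below nearly all genes of like abundance, at -0.88.

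Seed matches were examined because the knockout was made to lose miR-23, miR-27 and miR-24, and loss of a miRNA is known to raise transcripts that it represses. The mature miRNAs themselves were not measured in these libraries. Mature forms are shown with the seed (bases 2 to 8) in capitals, from RefSeq on GRCm38.p6. The 3 seeds differ from each other, and miR-27a-3p and miR-27b-3p share theirs. The miR-23 seed was taken from miR-23a-3p, and the mature form of miR-23b, from Mirc22, is not shown.
miR-23a-3p: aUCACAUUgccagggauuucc
miR-27a-3p: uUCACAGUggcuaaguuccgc
miR-27b-3p: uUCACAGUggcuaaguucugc
miR-24-3p: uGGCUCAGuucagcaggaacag

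The longest annotated 3' UTR of each member was searched for AATGTGA or ATGTGAA (miR-23), ACTGTGA or CTGTGAA (miR-27) and CTGAGCC or TGAGCCA (miR-24), on the transcript strand, with an overlapping pair counted as 1 site of 8 nucleotides. Matches were found in 6 of 10 members, 13 sites in all, and 53.1% of 13083 tested genes with a 3' UTR held such a match. Ctss, with the largest fall and a 3' UTR of only 218 nucleotides, had none of the 3, and neither had Ctsd, Ctse or Ctsh. Among the 4 genes called lower, Ctsb had 3 sites, Ctsl 4 and Ctsa 1. Ctsc and Ctsz, not called, had 2 each, and Ctso had 1. The sites of 8 nucleotides are shown with their match in capitals and up to 10 flanking bases, from GENCODE M21 transcripts on mm10. They pair with the whole seed and have an A opposite base 1 of the miRNA.
Ctsb, miR-24, chr14:63144141-63144148, plus strand, exon 10: gtcctcaaacCTGAGCCAgtatgagtgc
Ctsb, miR-24, chr14:63144957-63144964, plus strand, exon 10: cactcaggtgCTGAGCCAtctctccagc
Ctsl, miR-24, chr13:64360080-64360087, minus strand, exon 9: gatttttgagCTGAGCCAaggaagcaaa
Ctsc, miR-23, chr7:88288881-88288888, plus strand, exon 4: accactgtggAATGTGAAccaccagaaa

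Of these genes, Ctsb and Ctsl were lower in the knockout and Ctsc was not called. All 4 sites of Ctsl lie in the 3' UTR of 4761 nucleotides of its longer form and outside that of 884 nucleotides of its shorter one. Both sites of Ctsc lie in a form with a 3' UTR of 2737 nucleotides and outside the 986 nucleotides of its principal transcript, which was used for its level per kb. With these 6 sites left out, 4 of 10 members keep a match. Which forms these macrophages made was not examined. A match is a description of the letters and does not show that the miRNA bound there.

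**Figure D4:**
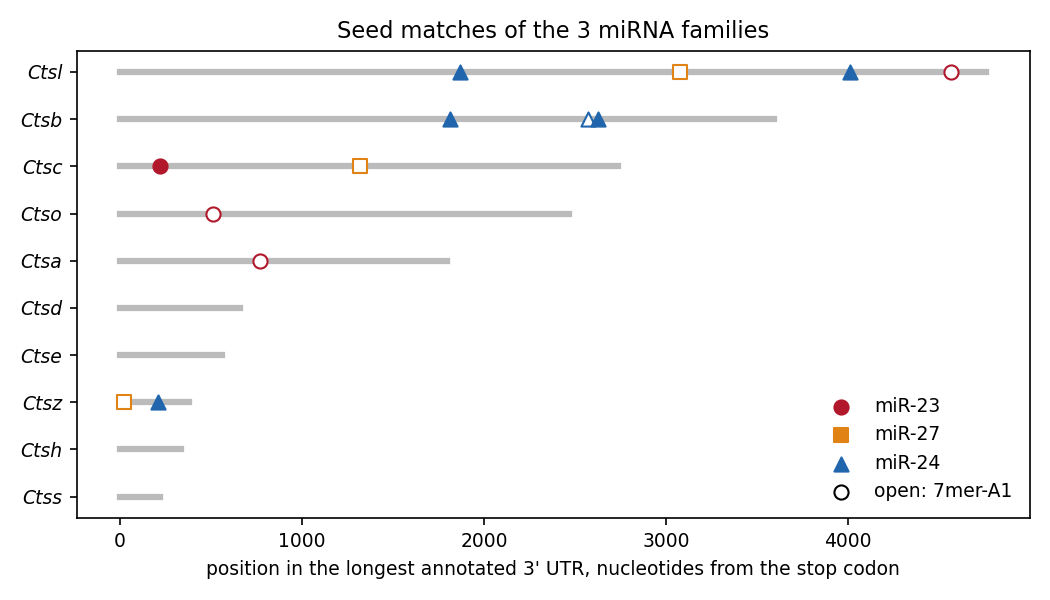
Seed matches of miR-23, miR-27 and miR-24 along the longest annotated 3' UTR of each cathepsin gene, in nucleotides from the stop codon. Filled symbols mark matches to bases 2 to 8 of the miRNA and open symbols the weaker match to bases 2 to 7 followed by A; Ctss, Ctsh, Ctse and Ctsd have none.

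The promoters were searched because many lysosomal genes share an E-box, CACGTG, the core of the element that TFEB and its relatives bind. Windows of 300 bases, 250 before and 50 after a start site, were at hand for 7 of 10 members (RefSeq, GRCm38.p6). Ctsb, Ctse and Ctsh had no window and were not searched. CACGTG, which reads the same on both strands, was present in the windows of 3 of the 7 members, Ctsa, Ctsd and Ctsl. It was present in 7.15% of all 32851 windows. Per gene, it was in at least 1 window of 11.3% of tested genes. The full palindrome with GT before and AC after it was in the windows of 0 members and in 0.326% of all windows. The windows below hold a pair of E-boxes each in Ctsa (called lower) and Ctsd (not called), in capitals, while that of Ctss, with the largest fall, holds none. The Ctsa window lies at the second of its annotated starts. The Ctsl window, chr13:64370471-64370770, lies inside the annotated gene, whose outermost start is at 64370890 on the minus strand.
Ctsa, chr2:164833523-164833822, plus strand: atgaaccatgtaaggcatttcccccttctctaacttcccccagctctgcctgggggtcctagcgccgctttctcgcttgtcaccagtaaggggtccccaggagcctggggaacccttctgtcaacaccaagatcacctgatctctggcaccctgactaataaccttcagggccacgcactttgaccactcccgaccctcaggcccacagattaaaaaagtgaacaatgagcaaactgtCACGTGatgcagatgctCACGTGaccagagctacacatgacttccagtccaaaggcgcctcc
Ctsd, chr7:142387778-142388077, minus strand: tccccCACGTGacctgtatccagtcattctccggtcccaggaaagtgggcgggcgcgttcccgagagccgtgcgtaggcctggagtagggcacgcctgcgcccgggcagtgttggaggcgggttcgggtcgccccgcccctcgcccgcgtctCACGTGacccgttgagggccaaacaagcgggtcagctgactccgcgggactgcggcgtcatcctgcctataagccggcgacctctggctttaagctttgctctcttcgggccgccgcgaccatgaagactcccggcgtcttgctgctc
Ctss, chr3:95526536-95526835, plus strand: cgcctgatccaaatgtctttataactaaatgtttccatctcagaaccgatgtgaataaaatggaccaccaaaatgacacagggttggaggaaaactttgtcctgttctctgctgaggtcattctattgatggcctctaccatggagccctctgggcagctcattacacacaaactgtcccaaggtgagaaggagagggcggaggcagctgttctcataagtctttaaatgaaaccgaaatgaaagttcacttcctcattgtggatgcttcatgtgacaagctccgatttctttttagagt

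Among members with a window, the E-box thus occurred in Ctsa and Ctsl, which were called lower, and in Ctsd, which was not. Ctsb, also called lower, had no window. Counted from the start site, the pair in Ctsa lies at positions -12 and 6, and in Ctsd the pair lies at positions -245 and -98. Tfeb, the transcription factor best known for driving lysosomal genes through this element, was lower in the knockout, at -0.33 (SE 0.06 and adjusted p = 1.896e-06) per the authors' deposited table. Tfe3 (-0.09, SE 0.05 and adjusted p = 0.181) and Tfec (0.13, SE 0.11 and adjusted p = 0.415), of the same family, were not called per the authors' deposited table. Of the 4 factors of this family, 1 fell and 0 rose by DESeq2, against 11.7% and 11.3% of all genes tested. Tfeb alone had an unadjusted p under 0.05.

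Of 13 further cathepsins, 2 had an adjusted p, and these went in opposite directions. That is 1 lower and 1 higher call, against 11.7% and 11.3% of all genes tested. Ctsk, the collagen-degrading protease of osteoclasts, was lower at -0.44 (SE 0.16 and adjusted p = 0.0328), and Ctsf, another cysteine cathepsin gene, was higher at 0.31 (SE 0.11 and adjusted p = 0.037), per the authors' deposited table. Ctsk lies 17.4 kb from Ctss, at chr3:95499256-95509362 (mm10). The call of Ctsk was lost under each of the 3 ways of centring (adjusted p between 0.0501 and 0.0669). Neither Ctsk nor Ctsf was called at an adjusted p under 0.01. Against a null of an absolute log2 fold change of at most 0.1, neither was called (adjusted p = 0.212 for Ctsk and 0.344 for Ctsf). Ctsl lies 1.06 Mb from the Mirc22 precursors on chromosome 13. The 6 tested genes lying between them held 2 higher calls and 1 lower call. For comparison, 23.0% of all genes tested had a call in either direction. Only genes between the precursors and Ctsl were counted, and any effect of the cluster on nearby genes was not tested.

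Inhibitors of cathepsins and related proteases were measured as 10 of 17 genes, of which 3 rose and 1 fell. Over all genes tested, 11.3% were called higher and 11.7% lower. The median log2 fold change of the 10 was 0.24, with each gene weighed alike whatever its level. Their summed derived means were 156684 normalized counts in knockout and 162241 in control cells. Cst3, which encodes cystatin C, the secreted inhibitor of cysteine cathepsins, was the most abundant of those called and was lower at -0.27 (SE 0.05 and adjusted p = 3.705e-06) per the authors' deposited table. Its derived fall of -16.8% is close to that of Ctsb. Serpinb1a, a serpin that inhibits cathepsin G and other granule serine proteases, was higher at 1.88 (SE 0.35 and adjusted p = 1.892e-06) per the authors' deposited table. Csta2, a stefin gene with close copies that can share reads, was at 1.84 (SE 0.58 and adjusted p = 0.0105), and Serpinb6b at 0.34 (SE 0.13 and adjusted p = 0.0385), per the authors' deposited table. Mean normalized counts were 300 for Serpinb1a, 51.9 for Csta2 and 3623 for Serpinb6b, against 62872 for Cst3.

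The partners of cathepsin A did not follow it. Neu1, the lysosomal neuraminidase, was higher at 0.25 (SE 0.05 and adjusted p = 3.117e-05) per the authors' deposited table. Glb1, the beta-galactosidase of the same complex, was at 0.16 (SE 0.07 and adjusted p = 0.0685) per the authors' deposited table, and with fold changes centred it passed the threshold (adjusted p between 0.0118 and 0.0278). The 3 genes of the complex thus held 1 called lower and 1 called higher.

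Other lysosomal peptidases, with 7 measured, held 1 that rose and 1 that fell, against 11.3% and 11.7% of all genes tested. Dpp7, a dipeptidyl peptidase gene, was at 2.49 (SE 0.12 and adjusted p = 1.479e-89) and Napsa, an aspartic protease gene related to Ctsd, at -1.22 (SE 0.15 and adjusted p = 8.768e-14) per the authors' deposited table. Prcp, a prolyl carboxypeptidase gene, was not called, at -0.23 (SE 0.10 and adjusted p = 0.0783), per the authors' deposited table. Lgmn, whose product legumain cuts several cathepsin precursors, was at 0.07 (SE 0.06 and adjusted p = 0.44) per the authors' deposited table.

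Genes of protein sorting to lysosomes, not all of them particular to cathepsins, were split, with 2 higher and 3 lower of 13. Over all genes tested, 11.3% were called higher and 11.7% lower. Sort1, the sorting receptor sortilin, was at 0.63 (SE 0.14 and adjusted p = 0.000146), while the adaptor genes Gga3 (-0.38, SE 0.05 and adjusted p = 8.852e-12) and Ap1m1 (-0.27, SE 0.06 and adjusted p = 0.000338) were lower per the authors' deposited table. The mannose 6-phosphate receptor genes M6pr (0.11, SE 0.07 and adjusted p = 0.286) and Igf2r (-0.07, SE 0.12 and adjusted p = 0.719) were not called per the authors' deposited table. Proton pump genes, which keep the lysosome acidic, had 2 higher and 2 lower of 17, with a median of -0.07. These counts are near the shares over all genes tested, 11.3% called higher and 11.7% lower. Most of the 17 had a mean normalized count of at least 10000, and among genes that abundant 8.49% were called higher and 20.0% lower. Atp6v1b2 was at 0.42 (SE 0.07 and adjusted p = 4.198e-07), Atp6v1h at 0.29 (SE 0.06 and adjusted p = 2.130e-05) and Atp6v1c1 at -0.22 (SE 0.05 and adjusted p = 0.000129) per the authors' deposited table.

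Genes of antigen presentation and of endosomal receptors, pathways in which cathepsins act, were mostly not called in the first and called in both directions in the second. Of 7 class II presentation genes, 1 rose and 0 fell, and none with a negative fold change had an unadjusted p under 0.05. H2-DMa, which loads peptides onto class II molecules, was at 0.66 (SE 0.10 and adjusted p = 1.215e-08) per the authors' deposited table. Cd74, the invariant chain gene that cathepsin S trims, was not called, at -0.36 (SE 0.42 and adjusted p = 0.59), per the authors' deposited table. Ciita, the class II transactivator gene, was at 1.24 (SE 0.50 and adjusted p = 0.0537) and H2-DMb1 at -0.23 (SE 0.13 and adjusted p = 0.183) per the authors' deposited table. Ciita passed the threshold with fold changes centred (adjusted p between 0.0441 and 0.0488) and among genes with a mean of at least 50 (adjusted p = 0.0484). Of 6 genes of endosomal Toll-like receptors and their handling, 1 rose and 3 fell. For both lists, the shares over all genes tested were 11.3% called higher and 11.7% lower. Tlr7 was at -0.45 (SE 0.09 and adjusted p = 4.845e-05), Tlr9 at 0.41 (SE 0.10 and adjusted p = 0.000325) and Unc93b1, their chaperone, at -0.26 (SE 0.06 and adjusted p = 0.000406) per the authors' deposited table. Granule serine proteases, the substrates of cathepsin C, were near background, with a largest mean normalized count of 6.08 and 0 of 1 tested called; that gene, Prtn3, had an unadjusted p of 0.0690. Lgmn, M6pr, Igf2r, Cd74 and Thy1 (a stromal marker) fall outside the naming rule and were chosen after their values were seen.

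**Figure D5:**
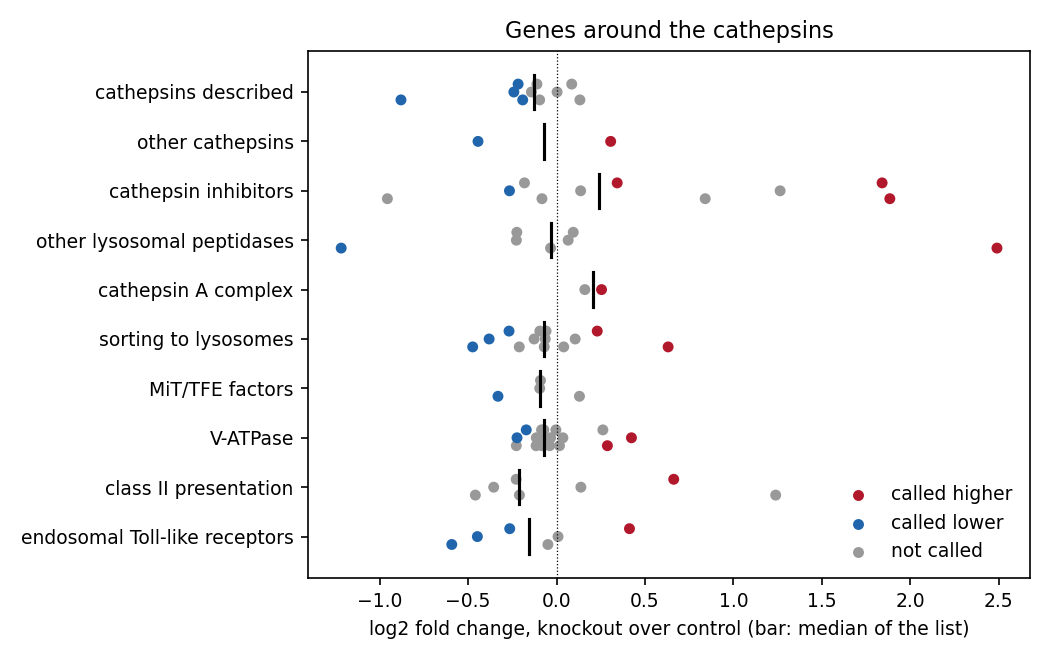
Log2 fold change, knockout over control, of every tested gene in the 10 cathepsin genes and in 9 lists of related genes, with the median of each list as a bar. The 4 called genes among the 10 cathepsins were all lower, while the further cathepsin Ctsf was called higher (adjusted p = 0.037 by DESeq2). Among genes with a mean normalized count of at least 10000, 20.0% were called lower and 8.49% higher. Both directions also occur among the other cathepsins, inhibitors, other lysosomal peptidases, sorting genes, V-ATPase and endosomal Toll-like receptors. The remaining lists hold 1 called gene each.

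Marker transcripts of other cells were also compared. Over all genes tested, 11.3% were called higher and 11.7% lower, the shares to set beside each count of calls below. Stromal markers were higher in the knockout, 10 of 11 tested and 0 lower, with summed derived means of 6856 normalized counts in knockout and 1863 in control cells. The remaining gene, Thy1, had an unadjusted p under 0.05 and was not called. Postn (1.86, SE 0.22), Acta2 (1.43, SE 0.18) and Col1a2 (2.18, SE 0.27) had the smallest adjusted p of this list per the authors' deposited table, and the fold changes of the 11 ran between 1.15 and 2.18. The 10 macrophage markers did not share a direction: 1 was higher, 5 were lower, Lyz2 included, and 4 were not called. Each had a mean normalized count of at least 10000, and 8.49% of genes that abundant were called higher and 20.0% lower. Adgre1, a macrophage surface receptor gene, was higher at 0.25 (SE 0.07), while Cd68 at -0.26 (SE 0.07), Csf1r at -0.33 (SE 0.09), Spi1 at -0.34 (SE 0.10) and Fcgr1 at -0.71 (SE 0.24) were lower per the authors' deposited table. Mertk at -0.02 (SE 0.09), Itgam at -0.11 (SE 0.15), Cd14 at -0.31 (SE 0.17) and Mrc1 at 0.99 (SE 0.63) were not called per the authors' deposited table. Adgre1, Spi1, Fcgr1 and these 4 are given to complete the list and fall outside the naming rule. In bulk RNA, fewer macrophages and less of a transcript per macrophage cannot be told apart, and the part of either in the cathepsin differences was not tested. Neutrophil, dendritic cell, B cell and T and NK cell markers had 0 called of 2, 3, 2 and 2 tested, by DESeq2, and 1 gene of these lists, Cd79b, had an unadjusted p under 0.05 (0.0251). The largest mean normalized count in each was between 8.82 and 106. Osteoclast markers had 1 lower of 4, Ctsk itself.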

How the data were processed

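Knockout and control macrophages had 4 RNA-seq libraries each, grouped by sample title. The submitters' processing notes name cutadapt, FastQC, DESeq2 and Salmon, and the build mm10; no source used here gives their versions, settings or roles. The authors' deposited comparison gives, per the file headers, a mean normalized count over all libraries (a signal), a log2 fold change with its SE in log2 units, a Wald statistic (a score, equal to the fold change over its SE to within 1.1e-07), and a p-value and adjusted p-value. A table with 8 columns of values per library was not used, because its column numbers match no label, so depth per library is unknown here and no limma fit was made. Of the 15853 genes, 1230 lacked an adjusted p-value though they had a p-value, each with a mean of at most 3.75.

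Group means were derived from the overall mean and the fold change, taking groups of equal size, and 95% intervals from the SE, in Python 3.11.15 with scipy 1.17.1. Calls are the authors' at an adjusted p under 0.05. Gene positions, transcripts and 3' UTRs came from GENCODE M21 (mm10), promoters and miRNAs from RefSeq. The calling by adjusted p and the estimate of the median shift were tested on simulated fold changes, and the derivation of group means on fixed values. The sequence searches and the centring on summed group means were not tested in this way. The genes and lists were chosen with earlier results of these data known. Genes were named by a rule: the 10 cathepsins, Lyz2, up to 3 genes per list with the smallest adjusted p, and every called gene among further cathepsins, inhibitors and the cathepsin A complex. Alternatives covered the filter, threshold, centring and a null of 0.1 on the log2 scale.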

Additional observations from a re-analysis of the deposited data

How the results depend on the processing

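The number of cathepsin genes called lower was 4 as deposited and 3 or 4 with no filter on low values, a mean of at least 50, an adjusted p under 0.01 or fold changes centred in any of 3 ways. It was 1, Ctss alone (adjusted p = 0.000459), when the null was an absolute log2 fold change of at most 0.1, and 0 were called higher under each of these 7 alternatives. Under that null Ctsb had an adjusted p of 0.103, Ctsa of 0.19 and Ctsl of 0.368. The related genes outside the 10, in the lists whose numbers tested are given above, had 12 called lower as deposited. They had 7 called lower under that null, by construction a stricter test. Called higher were 12 as deposited, 9 under that null and 14 under each centring. Of all 14619 genes tested, 1712 (11.7%) were called lower and 1651 (11.3%) higher as deposited. In the same order, the counts were 1046 and 2197 when centred on the summed group means without Lyz2. They were 1009 and 1047 at an adjusted p under 0.01, and 513 and 891 under the null of 0.1. Of 54 named genes, 39 kept their direction and their side of the threshold under every alternative that gave them a value. S100a8, a neutrophil marker that was not called, turned positive, to 0.030, 0.0070 and 0.021 on the log2 scale under the 3 centrings. Matches to bases 2 to 8 alone left 4 of 10 members with a site, in place of 6, against 40.6% in place of 53.1% of tested genes with a 3' UTR. The centring without Lyz2 and the members was chosen after seeing the data. The limma fits without single replicates, with a replicate block or with another pseudocount were not run. No paired analysis was possible because nothing ties the per-library columns to a genotype or replicate. The unknown depth per library and the lack of values per library limit every statement here to the authors' SE.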
